A study of Homo sapiens with 12 samples.

Results

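The interleukin-1 (IL-1) family genes and the gene of caspase-1 were examined in cells of HNSCC, the squamous carcinoma of head and neck sites, by taking the counts deposited under 10 symbols out of the 39368 symbols in each table. The members were the ligands IL1A, IL1B, IL18, IL33, IL36B and IL36G, the receptor antagonist IL1RN, the receptor chains IL1R1 and IL1RAP, and the protease CASP1. They were taken as members of the family, and the choice of this family was made with earlier results of these data known. Both lines used, CAL27 and HSC3, are established HNSCC lines without HPV, and every library came from cells carrying a tetracycline-inducible vector for an shRNA against MUC1 (tet-MUC1shRNA). CAL27/tet-MUC1shRNA cells in DMEM and HSC3/tet-MUC1shRNA cells in MEM were treated for 7 days with vehicle (0.1% DMSO) or with 500 ng/ml doxycycline (DOX), and RNA was sequenced from 3 cultures in each of the 4 groups. No library of DOX-treated cells with a control shRNA was analysed here, so an effect of DOX itself and an effect of the shRNA cannot be told apart.

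IL-1α and IL-1β are inflammatory cytokines that bind IL1R1, which then recruits its accessory chain IL1RAP and signals through MyD88 and IRAK kinases to NF-κB. IL1RN encodes an antagonist that occupies the same receptor without recruiting the accessory chain. The precursors of IL-1β and IL-18 are cleaved by caspase-1, which is activated in inflammasomes, whereas the IL-1α precursor is already active and is kept as an alarmin in epithelial cells. IL-33 and the IL-36 cytokines are further epithelial alarmins, and their receptors also use IL1RAP. RNA levels report neither cleavage nor release of these proteins.

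The promoters of IL1A, IL1B, IL1RN and IL1RAP are printed here because these 4 members fell in both lines, as described next. The sequences are from RefSeq on GRCh38.p14, run 5′ to 3′ on the strand of the gene and stop before the first base annotated as an exon. Capitals mark an AP-1 motif (TGANTCA) in IL1A, a GAS motif (TTCNNNGAA) in IL1B, an ISRE core (GAAA, any 2 bases and GAAA) in IL1RN and κB motifs (GGGA, any 4 bases and CC, or GGG, any 4 bases and TCC) in IL1RAP, all searched on both strands.
IL1A, chr2:112784494-112784743, minus strand: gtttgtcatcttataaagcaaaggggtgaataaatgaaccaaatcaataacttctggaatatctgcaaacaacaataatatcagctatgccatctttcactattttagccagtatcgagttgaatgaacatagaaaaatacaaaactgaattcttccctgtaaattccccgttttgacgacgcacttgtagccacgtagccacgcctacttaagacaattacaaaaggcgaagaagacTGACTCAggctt
IL1B, chr2:112836817-112837029, minus strand: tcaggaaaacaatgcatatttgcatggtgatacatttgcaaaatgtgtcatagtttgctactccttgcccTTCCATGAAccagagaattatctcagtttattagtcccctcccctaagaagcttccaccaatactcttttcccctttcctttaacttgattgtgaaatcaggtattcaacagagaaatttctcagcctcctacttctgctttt
IL1RN, chr2:113127239-113127482, plus strand: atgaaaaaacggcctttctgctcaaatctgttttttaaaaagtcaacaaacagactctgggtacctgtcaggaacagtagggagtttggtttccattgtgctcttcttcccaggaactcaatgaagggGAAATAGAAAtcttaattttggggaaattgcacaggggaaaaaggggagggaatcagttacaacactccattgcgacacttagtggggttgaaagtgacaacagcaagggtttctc
IL1RAP, chr3:190513835-190514050, plus strand: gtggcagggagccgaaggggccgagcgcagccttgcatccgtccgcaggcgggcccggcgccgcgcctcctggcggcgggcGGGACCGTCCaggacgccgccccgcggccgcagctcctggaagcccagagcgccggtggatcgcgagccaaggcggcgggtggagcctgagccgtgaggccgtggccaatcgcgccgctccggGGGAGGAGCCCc
Positions count from the RefSeq start of the printed window. The first base of the motif lay 12 bases before that start in IL1A (position -12), at -180 in IL1B and at -122 in IL1RN. In IL1RAP it lay at -169 and -46, where the match at -46 overlapped another at -45. From another RefSeq start of IL1A the AP-1 matches lay at -105 and -55, and from another of IL1RN the ISRE core lay at -231. Each printed window was chosen because it held a motif, looked for in the order ISRE core, GAS, AP-1 and κB. Among 35116 promoter windows of the same length, 7.71% held the AP-1 motif, 7.66% the GAS motif, 3.57% the ISRE core and 34.4% a κB motif. Because of that choice, the printed matches cannot be weighed against these shares. Windows of IL33 and IL1R1, which did not fall in both lines, also held a GAS match, and a window of IL1R1 held κB matches. The window of IL1A held a second AP-1 match at 38 after its start and that of IL1RN a κB match at 12, and another window of IL1RN held an AP-1 match at -223 and κB matches at -117 and -78. A match of letters is a description and not a binding site. RefSeq windows were matched for 7 of the 10 members, with 14 windows in all, and not for IL18, IL36B and CASP1.

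Counts summed to 89730914 to 130393198 in the vehicle-treated HSC3 libraries, to 134231542 to 169065103 in the DOX-treated HSC3 libraries, to 97477659 to 126328662 in the vehicle-treated CAL27 libraries and to 92866845 to 117677241 in the DOX-treated CAL27 libraries. The library of HSC3 DOX replicate 1 stood apart, with a chi-square per degree of freedom of 119 and 79.6 against the other replicates of its group, which were at 20.1 to each other, and with 17.3 counts per molecule. Without it, the genes called in HSC3 cells went from 2782 to 3601 lower and from 2342 to 3268 higher. The same members were called in HSC3 cells without it, at log2 fold changes of -0.37 for IL1A, -0.39 for IL1B, -2.76 for IL1RN, -1.43 for IL1RAP and 0.24 for IL18. Levels are CPM, the count of a gene relative to the size of its library, scaled by the trimmed mean of M values (TMM) over all 12 libraries. MUC1, the targeted gene, was at 58.4, 53.1 and 54.3 CPM in vehicle-treated CAL27 cells and at 2.92, 2.76 and 3.25 CPM with DOX. In HSC3 cells it was at 1.66, 1.97 and 1.64 CPM with vehicle and at 0.310, 0.267 and 0.132 CPM with DOX. These DOX values rest on 46, 36 and 16 counts, at an estimated 17.3, 8.98 and 11.3 counts per molecule, so on few molecules. All 8 squamous epithelial markers, keratins among them, were above 1 CPM in each group. Their sum with DOX was below that with vehicle in both lines, at 2970 to 3183 against 6302 to 6575 CPM in CAL27 cells and at 2688 to 3124 against 5885 to 6593 CPM in HSC3 cells. KRT5 was the largest part of this sum, and KRT5, KRT14, KRT6A, KRT17, TP63 and DSG3 had lower means with DOX in both lines. EPCAM instead rose, from 124 to 164 CPM in CAL27 and from 55.7 to 102 CPM in HSC3 cells. CDH1 changed little, from 291 to 299 CPM and from 171 to 169 CPM. In CAL27 cells the 12 leukocyte markers summed to 68.3 to 77.8 CPM with vehicle and 31.9 to 54.2 CPM with DOX, mostly from S100A8 and S100A9, which squamous epithelium also expresses, and to 3.16 to 6.02 CPM in HSC3 cells. Of these markers, 6 were under 0.1 CPM in each group, with MS4A1, a B cell marker, at 0 counts in every library and PTPRC, the pan-leukocyte marker, among the low ones. In CAL27 cells CD14 was at 4.70 CPM with vehicle and 3.87 with DOX, and CSF1R at 1.75 and 2.92 CPM. In HSC3 cells CD14 was at 1.03 and 0.845 CPM, and CSF1R at 1.22 and 0.505 CPM. In CAL27 cells the 6 fibroblast markers summed to 13.4 to 14.1 CPM with vehicle and 10.2 to 10.6 CPM with DOX, and in HSC3 cells to 4.20 to 4.999 and 5.97 to 9.34 CPM, with COL3A1 at 0. The part of the marker changes in the results on the members was not tested. In these bulk samples, fewer cells expressing a gene and less RNA per cell cannot be told apart.

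With DOX, CAL27 cells had lower RNA of IL1A, IL1B, IL1RN, IL1R1, IL1RAP and CASP1, so that both agonist ligands, the antagonist, both receptor chains and the protease fell together. HSC3 cells had lower IL1A, IL1B, IL1RN and IL1RAP, and higher IL18. Of 8 members tested in each line by edgeR's quasi-likelihood test, 6 fell and 0 rose in CAL27, and 4 fell and 1 rose in HSC3 cells. Of all genes tested, 44.5% passed in CAL27 cells (21.8% lower and 22.6% higher) and 28.4% in HSC3 cells (15.4% lower and 13.0% higher), so a large part of the transcriptome passed the same threshold. Changes above 2-fold were found only for IL1RN and IL1RAP among the members, both lower in each line. Of all genes tested, 5.11% were lower and 1.31% higher by as much in CAL27 cells, against 4.40% and 1.58% in the HSC3 line. The 8 tested members had a median log2 fold change of -0.78 (CAL27) and -0.18 (HSC3), beside medians of -0.0052 and -0.0097 over all genes tested. IL36B and IL36G did not pass the filter on low counts within either line, and their values under other settings are given with their counts.

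**Figure D1:**
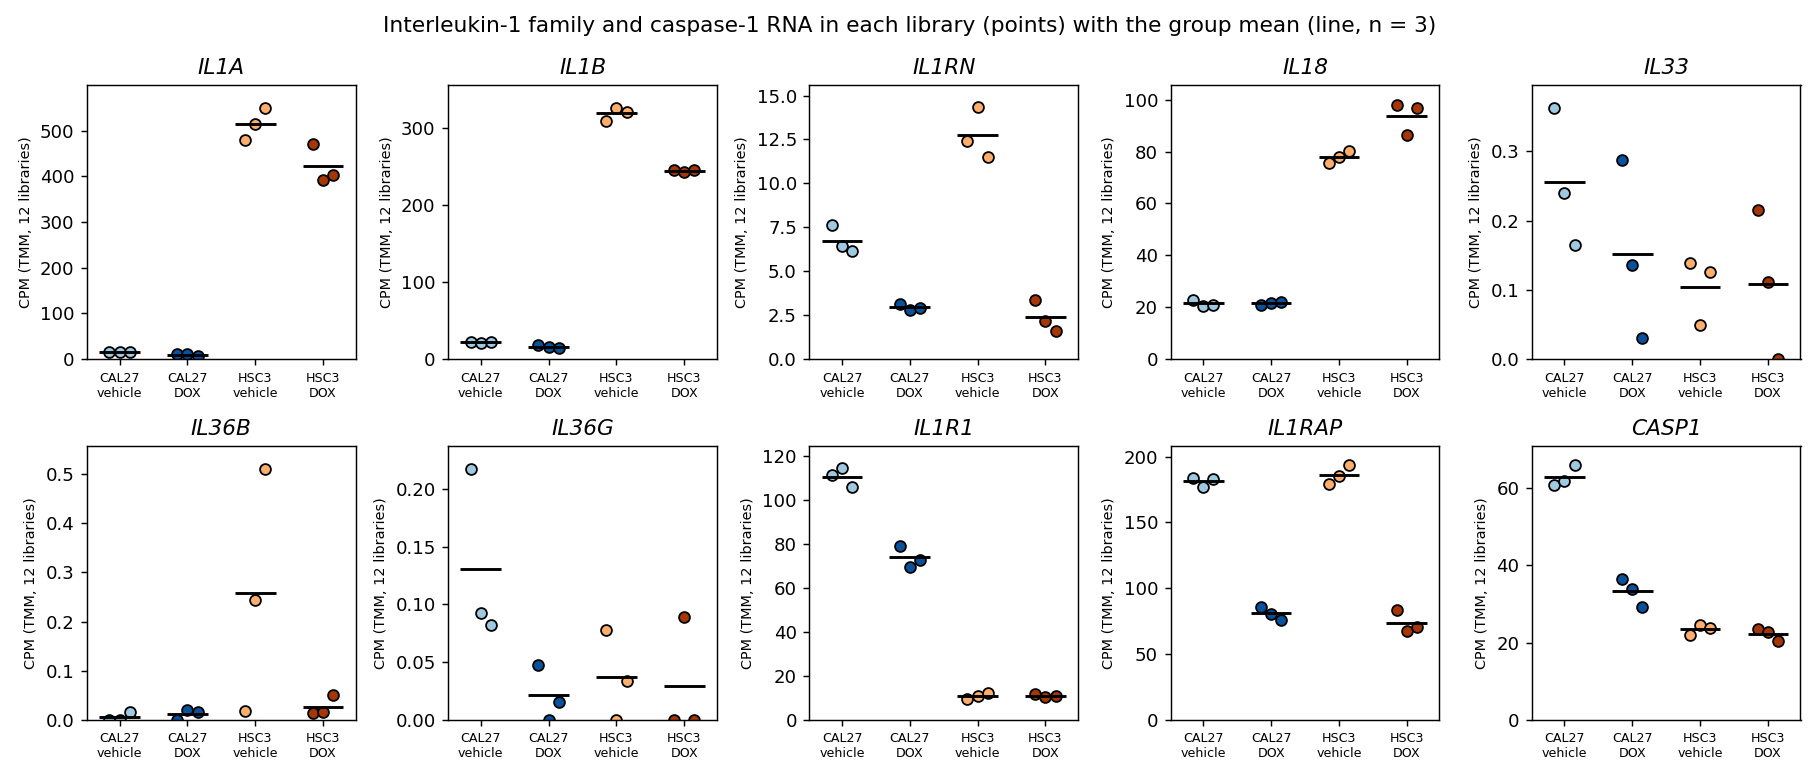
Level of each member in CPM (TMM over 12 libraries, vertical axes starting at 0 and scaled for each gene) in CAL27 and HSC3 cells treated with vehicle or DOX. Points are libraries and lines are means of 3. The vehicle and DOX points of IL1RN and IL1RAP do not overlap in either line, with group means of 6.74 and 2.94 CPM for IL1RN and of 181 and 80.8 CPM for IL1RAP in CAL27 cells.

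Among the agonist ligands, IL1A, on chromosome 2 (GRCh38, 112773925 to 112784493, minus strand), was at 15.9, 15.05 and 16.4 CPM in vehicle-treated and at 10.2, 10.1 and 7.70 CPM in DOX-treated CAL27 cells. Each DOX library was below each vehicle library, and IL1A fell by 0.76 on the log2 scale (SE 0.089, 1.70-fold, adjusted p = 1.6e-06). In HSC3 cells IL1A was at 479, 513 and 550 CPM with vehicle and at 471, 392 and 402 CPM with DOX. The groups did not overlap, but the highest DOX library was close to the lowest vehicle library, and the change was -0.29 (SE 0.079, adjusted p = 0.018). This call in HSC3 cells was lost without vehicle replicate 2 (adjusted p = 0.059), vehicle replicate 3 (0.093), DOX replicate 2 (0.060) or DOX replicate 3 (0.077). IL1A responded less in HSC3 than in CAL27 cells, with a difference between the log2 fold changes of 0.47 (SE 0.14, adjusted p = 0.021 for the interaction of line and DOX). Without CAL27 vehicle replicate 3 or HSC3 vehicle replicate 1 the adjusted p of that difference was 0.051 and 0.052.

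IL1B lies near IL1A on chromosome 2 (112829751 to 112836816, minus strand). In CAL27 cells it was at 22.4, 21.4 and 22.5 CPM with vehicle and at 17.7, 16.3 and 13.8 CPM with DOX, a decrease of 1.40-fold (log2 fold change -0.48, SE 0.072, adjusted p = 2.0e-05). In HSC3 cells it was at 310, 327 and 321 CPM with vehicle and at 246, 243 and 246 CPM with DOX, a decrease of 1.31-fold (log2 fold change -0.39, SE 0.054, adjusted p = 3.2e-04). The groups were apart in both lines. A difference between the lines was not shown for IL1B, since the log2 responses differed by 0.09, with a 95% interval of -0.11 to 0.30 (adjusted p = 0.58). Leaving out any single library left IL1B called in both lines.

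IL18, a caspase-1 substrate that promotes interferon-γ production by lymphocytes, did not fall in either line. On chromosome 11 (112143253 to 112164096, minus strand), in CAL27 cells it was at 22.8, 20.5 and 20.9 CPM with vehicle and at 20.9, 21.7 and 22.2 CPM with DOX. The groups overlapped, and the log2 fold change was 0.01 with a 95% interval of -0.11 to 0.13 (adjusted p = 0.93). In HSC3 cells IL18 was at 75.5, 77.7 and 80.1 CPM with vehicle and at 97.8, 86.3 and 96.7 CPM with DOX. All DOX libraries were above all vehicle libraries, a rise of 1.20-fold (log2 fold change 0.26, SE 0.069, adjusted p = 0.016), but the call was lost without vehicle replicate 1 (adjusted p = 0.077), vehicle replicate 2 (0.074) or DOX replicate 3 (0.074). The difference between the lines was 0.26 and did not pass (adjusted p = 0.055), though it did without HSC3 DOX replicate 1 (0.032) or replicate 2 (0.016). On all libraries it passed with DESeq2 size factors (adjusted p = 0.044), library totals (0.048), counts per molecule (0.037), DESeq2 (0.024), voom (0.026) and a replicate block (0.048), and not without the filter (0.054).

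The alarmins IL33, IL36B and IL36G were near the limit of detection in both lines. In CAL27 cells IL33, on chromosome 9 (6215786 to 6257983, plus strand), had 50, 26 and 20 counts with vehicle against 30, 14 and 4 with DOX. In HSC3 cells it had 16, 4 and 15 against 32, 15 and 0 counts. The groups overlapped in both lines, with log2 fold changes of -0.80 (SE 0.56, adjusted p = 0.27) and 0.05 (SE 1.30, adjusted p = 0.99). Without the CAL27 DOX library of column 4 the CAL27 change was -1.67 and passed (adjusted p = 0.029). IL36G had 30, 10 and 10 counts in vehicle-treated against 5, 0 and 2 in DOX-treated CAL27 cells, and at most 12 counts in an HSC3 library. IL36B had at most 2 counts in a CAL27 library, and 2, 20 and 61 counts with vehicle against 2, 2 and 6 with DOX in HSC3 cells. Whether a change of the IL36 genes was called depended on the setting. Without the filter on low counts, IL36G was lower with DOX in CAL27 cells (log2 fold change -2.59, adjusted p = 0.0069), as it was with DESeq2 (-2.65, adjusted p = 0.021), and it passed the filter and was called without vehicle replicate 2 (adjusted p = 0.022), vehicle replicate 3 (0.016) or the DOX library of column 4 (0.0047) or 6 (0.026), but not without that of column 5 (0.053) or in 1 fit over all 12 libraries (0.27). In HSC3 cells IL36B was lower with DESeq2 (-3.32, adjusted p = 0.035) and did not pass without the filter in edgeR (-3.28, adjusted p = 0.10), nor where it could be tested with a library left out (adjusted p = 0.054 to 0.19). Several counts can stand for 1 molecule here, with estimates of 2.42 to 3.38 counts per molecule in CAL27 cells, 4.19 to 7.45 in vehicle-treated HSC3 cells and 8.98 to 17.3 in DOX-treated HSC3 cells. At this depth a change of IL33 in HSC3 cells was not detectable.

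The antagonist IL1RN fell in both lines, in CAL27 cells by about as much as IL1RAP and in HSC3 cells by more than any other tested member. It lies on chromosome 2 (113099315 to 113134016, plus strand) in the same cluster as IL1A and IL1B. In CAL27 cells IL1RN was at 7.64, 6.44 and 6.14 CPM with vehicle and at 3.15, 2.76 and 2.90 CPM with DOX, and fell by 1.20 on the log2 scale (SE 0.10, 2.30-fold, adjusted p = 1.0e-08). In HSC3 cells it was at 12.4, 14.4 and 11.5 CPM with vehicle and at 3.38, 2.17 and 1.57 CPM with DOX, and fell by 2.43 (SE 0.24, 5.37-fold, adjusted p = 2.7e-05). Vehicle and DOX libraries were well apart in each line, although the HSC3 DOX libraries were spread among themselves. The decrease was larger in HSC3 than in CAL27 cells, with a difference of -1.22 (SE 0.29, adjusted p = 0.0066).

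Because the antagonist competes with both agonists, its share of the RNA of the 3 genes was computed within each library from CPM per kb of exon. In CAL27 cells the IL1RN share was 11.8%, 10.6% and 9.53% with vehicle and 7.17%, 6.63% and 8.47% with DOX, with means of 10.6% ± 1.12 and 7.42% ± 0.946 (SD, n = 3). In HSC3 cells the share was 0.967%, 1.048% and 0.805% with vehicle and 0.287%, 0.210% and 0.150% with DOX, with means of 0.940% ± 0.124 and 0.216% ± 0.0687 (SD, n = 3). The vehicle and DOX libraries did not overlap in either line. From plain CPM, without exon lengths, the share in CAL27 cells was 13.6% to 16.6% with vehicle and 9.48% to 11.9% with DOX. In HSC3 cells it was then 1.30% to 1.68% with vehicle and 0.242% to 0.470% with DOX. The size of the share thus depends on the lengths used, while the groups stayed apart. The two-sided exact permutation test gave p = 0.1 in each line, which is the smallest value that 3 libraries against 3 allow, so this design could not pass 0.05 for the share.

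**Figure D2:**
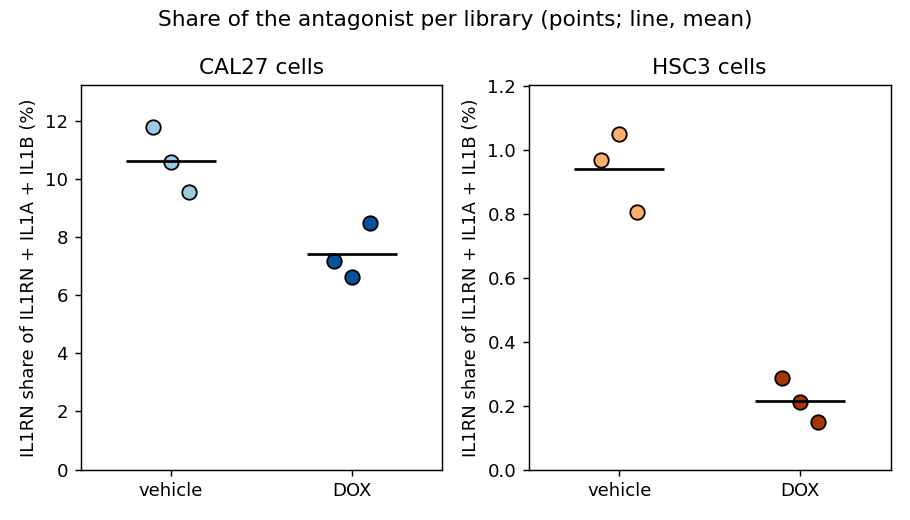
Share of IL1RN in the summed CPM per kb of IL1RN, IL1A and IL1B, in percent, in vehicle- and DOX-treated libraries of CAL27 (left) and HSC3 cells (right, with its own axis). Points are libraries and lines are means of 3. All DOX points lie below all vehicle points of the same line, with means of 7.42% against 10.6% in CAL27 cells and 0.216% against 0.940% in HSC3 cells.

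Of the receptor chains, the accessory chain IL1RAP fell by more than 2-fold in both lines. It lies on chromosome 3 (190514051 to 190659750, plus strand). IL1RAP was at 184, 177 and 183 CPM with vehicle and at 85.9, 80.4 and 76.2 CPM with DOX in CAL27 cells (log2 fold change -1.17, SE 0.042, adjusted p = 2.6e-14). In HSC3 cells it was at 179, 186 and 194 CPM with vehicle and at 83.2, 67.9 and 70.5 CPM with DOX (log2 fold change -1.34, SE 0.080, adjusted p = 8.9e-07). Thus the vehicle levels overlapped between the lines, and within each line the DOX levels were apart from them. The responses differed by -0.17 with a 95% interval of -0.38 to 0.04 (adjusted p = 0.27). Without HSC3 DOX replicate 1 the difference was -0.24 and passed (adjusted p = 0.0091).

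The signalling receptor IL1R1 fell in CAL27 cells and did not pass in HSC3 cells, and the lines differed. On chromosome 2 (102064544 to 102179874, plus strand), it was at 112, 115 and 106 CPM with vehicle and at 79.1, 69.8 and 73.0 CPM with DOX in CAL27 cells, a decrease (log2 fold change -0.59, SE 0.046, adjusted p = 2.5e-09). In HSC3 cells the levels were 9.51, 10.8 and 12.4 CPM with vehicle and 11.5, 10.3 and 10.7 CPM with DOX. These groups overlapped, and the log2 fold change was -0.01 with a 95% interval of -0.29 to 0.27 (adjusted p = 0.96). The difference between the responses was 0.58 (SE 0.12, adjusted p = 0.0027).

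CASP1, on chromosome 11 (105025397 to 105035250, minus strand), likewise fell in CAL27 cells and did not pass in HSC3 cells. Its product is the protease that cleaves the IL-1β and IL-18 precursors. It was at 60.8, 61.8 and 66.0 CPM with vehicle and at 36.6, 34.0 and 29.2 CPM with DOX in CAL27 cells, a 1.90-fold decrease (log2 fold change -0.92, SE 0.067, adjusted p = 4.0e-08). In HSC3 cells it was at 21.9, 24.5 and 23.8 CPM with vehicle and at 23.6, 22.8 and 20.4 CPM with DOX. The HSC3 groups overlapped, with a log2 fold change of -0.07 and a 95% interval of -0.28 to 0.13 (adjusted p = 0.63). The responses differed by 0.85 (SE 0.12, adjusted p = 1.2e-04). CASP1 shares near-identical sequence with its neighbours CARD16 and CARD17, so its counts are uncertain to the extent that the counting split reads among them. CARD16 fell in CAL27 cells (log2 fold change -0.67) and rose in HSC3 cells (0.99).

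In all, the response to DOX differed between the lines for 4 of the 9 members tested for it, with IL1A, IL1R1 and CASP1 higher and IL1RN lower in HSC3 relative to CAL27 cells (3 higher and 1 lower). With IL18 there were 4 higher under the settings named above, and with voom 2 were lower. Of all genes tested, 20.6% differed in this sense (8.25% higher and 12.3% lower). Of the members that passed, only IL1RN, which was lower, differed by more than 2-fold, as did 3.02% of all genes that were lower and 2.19% that were higher. Neither IL33 (0.83, SE 1.44, adjusted p = 0.78) nor IL36G (2.23, SE 2.11, adjusted p = 0.53) had an interaction that could be resolved. MUC1 itself fell by more in CAL27 (log2 fold change -4.21) than in HSC3 cells (-2.88). The difference was 1.36 (SE 0.25, adjusted p = 0.0010 for the interaction). With DOX, MUC1 had only 16 to 46 counts in an HSC3 library, so the sizes of its HSC3 decrease and of this difference are uncertain. With vehicle, MUC1 was 31.7-fold lower in HSC3 than in CAL27 cells. The part of this in the differences between the members' responses was not tested.

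**Figure D3:**
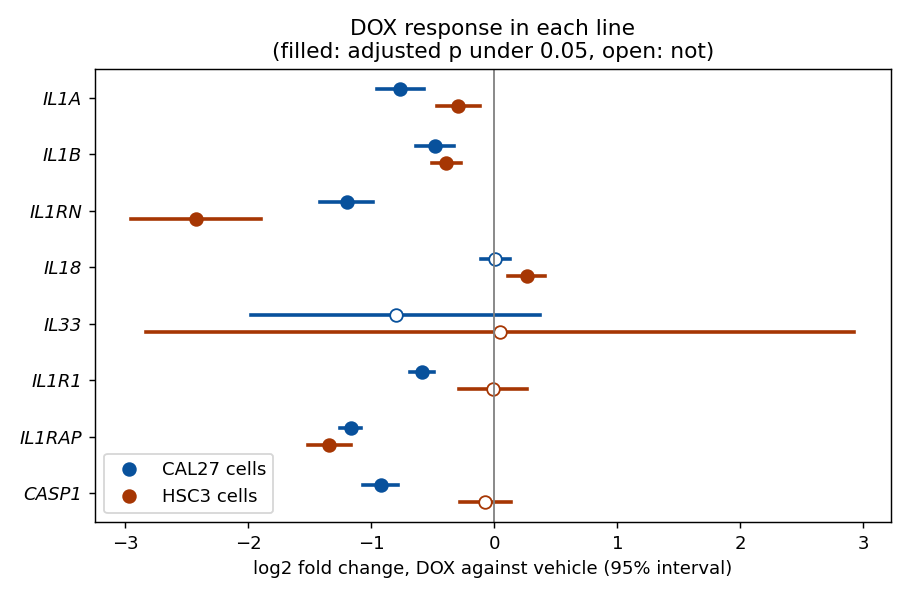
Log2 fold change with DOX against vehicle for the 8 members tested in each line, with the 95% interval from edgeR as a bar. Filled points had an adjusted p under 0.05 and open points did not. IL1RN is at -1.20 in CAL27 and at -2.43 in HSC3 cells, IL1RAP is at -1.17 and -1.34, and IL1R1 and CASP1 are open and near 0 in HSC3 cells.

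Without DOX the lines differed widely in these genes. Vehicle-treated HSC3 cells had more RNA of the agonists and less of the receptor IL1R1 than CAL27 cells. The mean level of IL1A was 514 ± 35.3 CPM in HSC3 and 15.8 ± 0.695 CPM in CAL27 cells (SD, n = 3), a 32.5-fold difference (adjusted p = 8.0e-15). IL1B was at 320 ± 8.61 against 22.1 ± 0.608 CPM, 14.4-fold higher in HSC3 cells (adjusted p = 2.6e-15). IL18 was 3.63-fold higher (77.8 ± 2.28 against 21.4 ± 1.18 CPM, adjusted p = 1.2e-12) and IL1RN 1.89-fold higher (12.8 ± 1.47 against 6.74 ± 0.792 CPM, adjusted p = 8.0e-04). In contrast, IL1R1 was 10.1-fold lower in HSC3 cells (10.9 ± 1.44 against 111 ± 4.49 CPM, adjusted p = 7.8e-14) and CASP1 2.69-fold lower (23.4 ± 1.36 against 62.9 ± 2.77 CPM, adjusted p = 7.2e-10). IL1RAP was at 186 ± 7.56 and 181 ± 3.74 CPM, with a log2 difference of 0.04 and a 95% interval of -0.11 to 0.19 (adjusted p = 0.65). Thus 4 of 9 members tested were higher and 2 lower in HSC3 cells, where 62.9% of all genes differed (30.6% higher and 32.3% lower). Above 2-fold 3 members were higher and 2 lower, against 13.2% and 18.7% of all genes. The median difference over all genes was -0.12 on the log2 scale, and it was -0.39 when libraries were scaled by their totals, under which the IL1RAP difference became -0.23 and passed (adjusted p = 0.0037). The line goes with its own medium and its own table, so these cannot be told apart. The line-to-line differences in IL33 (-1.27, adjusted p = 0.30) and IL36G (-1.74, adjusted p = 0.31) did not pass. IL36B was not tested in this fit, and with no filter (adjusted p = 0.0074), with DESeq2 (0.0014) or with a library left out other than HSC3 vehicle replicate 2 or 3 (0.0022 to 0.034) it was called higher in HSC3 cells, against at most 2 counts in a CAL27 library.

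Levels of different genes were compared per kb of merged exons (GENCODE v44). Merged exons pool all annotated transcripts of a gene, so an order or ratio between genes depends on these lengths. In vehicle-treated CAL27 cells, IL1RAP (16.2 CPM per kb), CASP1 (15.9) and IL1R1 (15.6) led, and neighbours in this order overlapped. IL18 (8.22), IL1A (7.83) and IL1B (7.35) followed, also overlapping between neighbours, and then came IL1RN (1.81), with the other members below 0.1 CPM per kb. In vehicle-treated HSC3 cells the ligands led instead, in the order IL1A (255 CPM per kb), IL1B (106), IL18 (29.9), IL1RAP (16.6), CASP1 (5.90), IL1RN (3.42) and IL1R1 (1.53), with no overlap between neighbours. The order of these members in HSC3 cells was the same with DOX except at its end, where IL1R1 (1.53) then stood above IL1RN (0.636). With DOX in CAL27 cells IL1R1 (10.4) came first, followed by CASP1 (8.39), IL18 (8.28) and IL1RAP (7.21), of which CASP1 overlapped with both IL18 and IL1RAP. The ratio of IL1A to IL1B per kb was 1.06 ± 0.0213 with vehicle and 0.874 ± 0.0463 with DOX in CAL27 cells, against 2.40 ± 0.134 and 2.57 ± 0.250 in the HSC3 line (SD, n = 3). The ratio of IL1R1 to IL1RAP was 0.963 with vehicle and 1.44 with DOX in CAL27 cells, against 0.0920 and 0.233 in the HSC3 line.

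**Figure D4:**
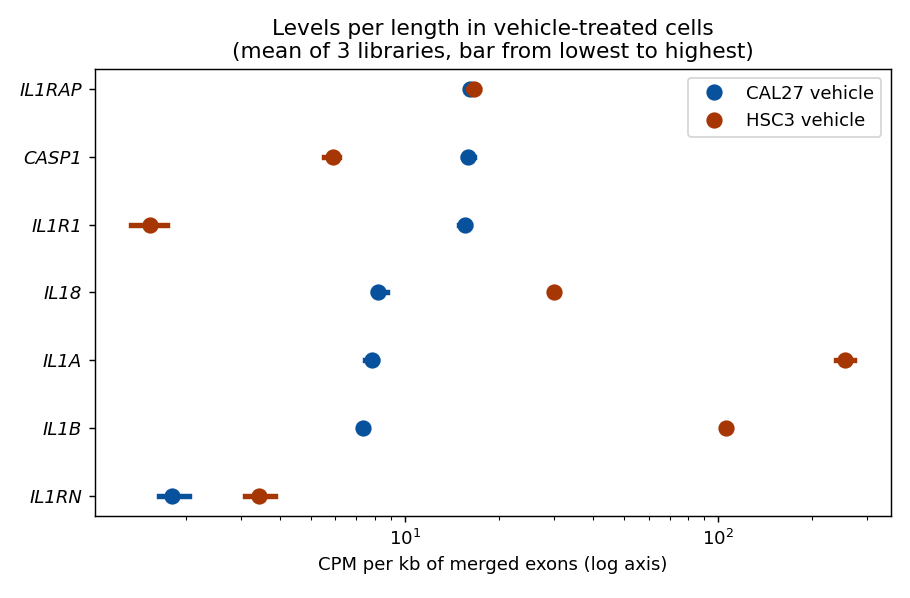
Level of 7 members in vehicle-treated CAL27 and HSC3 cells in CPM per kb of merged exons, on a log axis. Points are means of 3 libraries and bars run from the lowest to the highest library. IL1A is at 255 in HSC3 and 7.83 in CAL27 cells, IL1R1 is at 1.53 and 15.6, and the points of IL1RAP lie together at 16.6 and 16.2.

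Other genes of the pathway were counted from lists by function, and their counts stand beside the 21.8% lower and 22.6% higher of all genes in CAL27 cells and the 15.4% lower and 13.0% higher in HSC3 cells. Of 13 further ligands, receptors and inhibitors of the family, 8 were tested in CAL27 cells (1 lower, 3 higher, median log2 fold change 0.22) and 9 in HSC3 cells (1 lower, 2 higher, median -0.09). IL1R2, a decoy receptor that binds IL-1 without signalling, rose in both lines, from 0.512 to 0.956 CPM in CAL27 cells (log2 fold change 0.89, adjusted p = 0.0028) and from 1.12 to 3.04 CPM in HSC3 cells (1.45, adjusted p = 0.0031). IL1RL1, the receptor of IL-33, rose in CAL27 cells from a low level (0.051 to 0.328 CPM, 2.61) and fell in HSC3 cells (3.78 to 2.37 CPM, -0.68, adjusted p = 0.050, just under the threshold). IL1RL2, the IL-36 receptor, rose in CAL27 cells (0.46), where IL18R1, the IL-18 receptor, fell (-0.31) and IL18BP, which sequesters IL-18, was at -0.23 and did not pass (adjusted p = 0.065). SIGIRR, an inhibitory receptor, rose in HSC3 cells (0.52, adjusted p = 0.014).

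All 17 genes of IL-1 receptor signalling were tested in both lines, and in CAL27 cells 7 were lower and 5 higher (median 0.04). In HSC3 cells 3 were lower and 4 higher (median 0.01). The E3 ligase genes PELI1 (-1.16 in CAL27 and -0.75 in HSC3 cells) and PELI2 (-1.46 and -1.55) fell in both, as did MAP3K7, which encodes the kinase TAK1 (-0.37 and -0.93). IRAK4, the kinase that binds MyD88 (0.24 and 0.51), and TAB3, a TAK1 adaptor (0.33 and 0.52), rose in both. IRAK3, an inhibitory family member, fell in CAL27 cells (-0.84) and was at -2.04 in HSC3 cells without passing (adjusted p = 0.054).

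Of 27 inflammasome and pyroptosis genes, 22 were tested in CAL27 cells, with 12 lower and 4 higher (median -0.27), and 24 in HSC3 cells, with 5 lower and 4 higher (median -0.08). PYCARD, the adaptor that joins sensors to caspase-1, fell in both lines (-0.48 and -0.53), as did GSDMC (-0.79 and -0.41) and SERPINB9, an inhibitor of granzyme B (-1.09 and -2.08). The SERPINB9 change in HSC3 cells was at low levels, from 1.16 to 0.273 CPM (SE 0.38). CARD8, a sensor (0.45 and 0.51), and NEK7, which binds NLRP3 (0.22 and 0.60), rose in both lines. SERPINB1, an inhibitor of inflammatory proteases, fell in CAL27 (-0.56) and rose in HSC3 cells (0.35). In CAL27 cells GSDMB (-1.21) and CARD17 (-1.75) also fell, although 36.1% of the CARD17 exons lie under other genes of the same strand. In HSC3 cells the sensor gene NLRP3 (-0.82) and the pore-forming GSDMA (-2.50, SE 0.51) fell, with GSDMA going from 2.35 to a low level of 0.414 CPM.

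The 24 genes that IL-1 is known to induce in epithelial cells had the most genes, of the 4 lists, with a different response in the lines. In CAL27 cells 17 of 20 tested fell and 1 rose (median -0.92), where 21.8% of all genes were lower and 22.6% higher. In HSC3 cells 5 of 22 fell and 4 rose (median -0.07), beside 15.4% and 13.0% of all genes. The test of the difference itself passed for 14 of 22, where 20.6% of all genes passed, with 12 higher and 2 lower in HSC3 relative to CAL27 cells (median 0.75, beside -0.02 over all genes). Among 9 further family genes tested for it, 0 were higher and 1 lower. Of 17 receptor signalling genes 4 were higher and 1 lower, and of 24 inflammasome and pyroptosis genes 6 were higher and 3 lower. The summed squamous markers, though not each of them, were lower with DOX in both lines, as given above. Their part in these counts, and that of IL-1 signalling itself, was not tested. In CAL27 cells the largest decreases were those of the chemokines CCL2 (230 to 32.4 CPM, -2.83) and CCL20 (3.31 to 0.927 CPM, -1.85) and of the acute-phase gene SAA2 (6.56 to 1.67 CPM, -1.99). The neutrophil chemokine CXCL1 went from 31.3 to 9.43 CPM in CAL27 cells (-1.74) and rose from 66.9 to 102 CPM in HSC3 cells (0.60), with a difference of 2.34 (SE 0.15, adjusted p = 8.5e-08). BIRC3, an inhibitor of apoptosis (-1.01 and 0.93), and TNFAIP3, a feedback inhibitor of NF-κB (-0.96 and 0.19), likewise fell in CAL27 and rose in HSC3 cells. CXCL8 (-1.45 and -0.75), the iron-sequestering LCN2 (-0.86 and -2.97) and SOD2 (-0.70 and -0.23) fell in both. IL6 rose in both lines, from 2.65 to 5.80 CPM in CAL27 cells (1.13) and from 2.07 to 6.11 CPM in HSC3 cells (1.55). IRAK2 stands in this list and in that of receptor signalling.

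**Figure D5:**
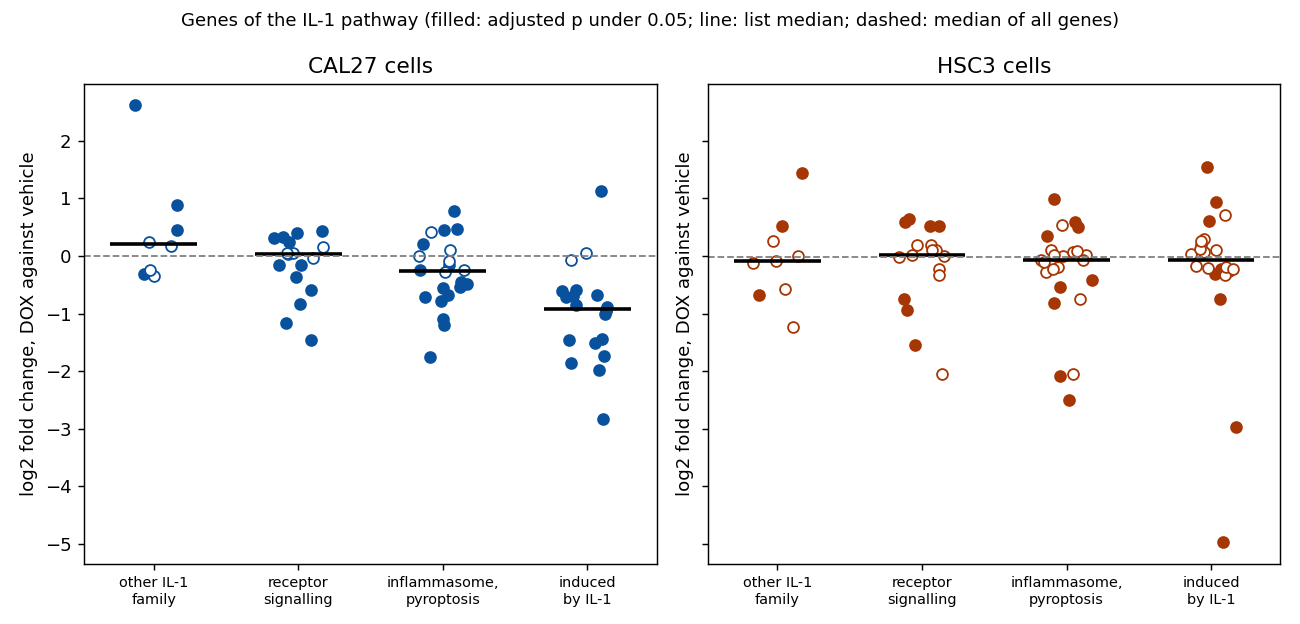
Log2 fold change with DOX against vehicle of the tested genes of 4 lists in CAL27 (left) and HSC3 cells (right). Filled points had an adjusted p under 0.05, solid lines are list medians and the dashed line is the median of all genes. The genes induced by IL-1 have a median of -0.92 in CAL27 and of -0.07 in HSC3 cells.

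The genes whose pattern was most like that of each member were found by Pearson's r over the 12 libraries after the mean of each line was taken off, among 9234 genes whose mean log2 CPM was 3 or more. All points share the split into vehicle and DOX, so high values are common and are given as a description. IL1RAP was closest to IFNGR1 (r = 0.997) and ATF2 (0.997), IL1RN to MANEA (0.993) and PAQR3 (0.989), CASP1 to GLUL (0.988) and COL4A5 (0.979), and IL1B to MTSS1 (0.987) and TSC22D3 (0.986). IL18 was closest to RUFY3 (0.977) and C16orf70 (0.946), IL1A to CCNG2 (0.974) and NCOA7 (0.972), and IL1R1 to SHFL (0.969) and PTPRA (0.948). The values of IL33, led by PROSER2 (0.915), and IL36G, led by ZNF687 (0.864), rest on the few counts given above.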

How the data were processed

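RNA was sequenced from 3 cultures in each of 4 groups, defined by line and treatment. The authors deposited counts per gene symbol, 1 table for each line, as whole numbers without normalization. The submitters' processing notes name FastQC 0.11.9, STAR 2.7.9a, Subread 2.0.1, featureCounts and GRCh38. The use of strand and the annotation are not given in the sources used here. All 12 count columns were used. The 3 CAL27 DOX columns are numbered differently from the samples and were mapped to their group without a replicate number. Replicates were compared in 12 pairs (chi-square per degree of freedom 6.35 to 119, with the highest for HSC3 DOX replicate 1), and each was counted as 1 sample. The number of counts per molecule was estimated from the share of genes at 0 among those with 8 to 16 expected counts.

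Counts were tested in R 4.3.3 with edgeR 4.0.16 (TMM, filterByExpr with at least 10 counts, and 15 in total, robust glmQLFit, glmQLFTest), for each line alone and, for the baseline and the interaction, in 1 fit of 12 libraries. P-values were Benjamini-Hochberg adjusted over all genes tested, with a threshold of 0.05. The fits were also run on simulated data, with the same spread for all genes. The simulation had no deviating replicate and no repeated counts of a molecule, so it does not cover these features of the HSC3 DOX libraries. Coordinates and exon lengths are from GENCODE v44 on GRCh38, and the annotation that was counted may differ. Alternatives were DESeq2 size factors, library totals, no filter, DESeq2 1.42.0, limma 3.58.1 voom, counts divided by counts per molecule, other sets of samples in the fit, a 2-fold threshold, a replicate block and each library left out. Named were all members, list genes that passed in both lines, and the 3 largest changes of each list and line among genes with at least 1 CPM. The members and lists were chosen with earlier results of these data known.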

Additional observations from a re-analysis of the deposited data

Results flagged for a closer look

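The response to DOX differed between the lines for 4 members, each by the test of the interaction term itself. The log2 fold change in HSC3 minus that in CAL27 cells was 0.47 for IL1A, -1.22 for IL1RN, 0.58 for IL1R1 and 0.85 for CASP1. For IL1RN both lines fell and HSC3 cells fell further, whereas IL1R1 and CASP1 fell in CAL27 cells and overlapped with vehicle in HSC3 cells. The difference for IL1A did not hold without every library, since its adjusted p was 0.051 without CAL27 vehicle replicate 3 and 0.052 without HSC3 vehicle replicate 1. The decrease of MUC1 also differed between the lines, on few counts in DOX-treated HSC3 cells, as given above.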

How the results depend on the processing

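Of 34 log2 fold changes of the members, 22 kept their direction and their side of the threshold under every alternative, and of 537 alternative values 498 did so, 9 lost the call, 11 gained it and 19 changed sign. With a 2-fold threshold, 2 members were lower in CAL27 cells, 2 lower and 0 higher in HSC3 cells, and 0 had a higher response in HSC3 cells. With limma voom 2 members had a lower response in HSC3 cells, IL1RAP being the second. Leaving out a library gave 6 to 8 members lower in CAL27 cells, 3 to 4 lower and 0 to 1 higher in HSC3 cells, 4 to 5 higher in HSC3 than CAL27 cells with vehicle, and 1 to 2 with a lower and 2 to 4 with a higher response in HSC3 cells. Under the other settings 6 to 7 were lower in CAL27 and 4 to 5 in HSC3 cells, 2 to 3 were lower and 4 to 5 higher at baseline, and 3 to 4 had a higher response in HSC3 cells. Beside IL1A, IL18 and IL33, these counts moved with IL36B and IL36G, which passed the filter on low counts only in some settings, and with IL1RAP. The 19 changes of sign concerned values that had not passed in the main fit. Among them, IL1RAP at baseline with library totals passed with its new sign (adjusted p = 0.0037) and is not counted with the calls gained. IL18 in CAL27 cells was at -0.0072 with library totals, at -0.00023 per molecule and from -0.030 to 0.041 without a library. IL1R1 in HSC3 cells was at 0.00033 with DESeq2 size factors, at 0.000057 with DESeq2 and from -0.100 to 0.095 without a library. IL1RAP at baseline was at -0.0056 with DESeq2 size factors, -0.23 with library totals, -0.0058 with DESeq2 and from -0.0020 to 0.057 without a library. Without a library, IL33 in HSC3 cells ran from -0.89 to 0.62, its interaction from -0.083 to 1.70 (-1.40 with voom) and the IL36G interaction from -2.63 to 3.49. The cause was not tested.

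With the replicate number as a block, IL33 in HSC3 cells was at -0.47 (adjusted p = 0.89) and the IL18 interaction passed (adjusted p = 0.048), and no other call changed. Same-numbered HSC3 libraries correlated at -0.19, 0.34 and -0.33, within the range of other pairs (-0.43 to 0.47). With so few pairs, and with deviations taken from the means of small groups, this could not decide whether the numbers pair the samples. No paired analysis was possible for CAL27 cells because their DOX columns carry no replicate number. Depth limits IL33, IL36B and IL36G, and MUC1 in DOX-treated HSC3 cells, which rest on few molecules.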
